A study of Mus musculus with 20 samples.

Results

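Gpam, Agpat2, Lpin1, Lpin2, Lpin3, Dgat1, Dgat2, Mogat1 and Pnpla3, which encode the enzymes of triglyceride assembly and a lipid droplet protein, were followed by symbol in the liver. They are 9 of the 29915 genes in the deposited read count table, and all 9 had enough counts to be tested. They were chosen by their known roles, with earlier results of these data known. Counts of them set against all genes are therefore descriptive. The 3 lipins were set beside the 5 acyltransferases Gpam, Agpat2, Mogat1, Dgat1 and Dgat2.

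The livers came from male mice fed chow, and their messenger RNA was sequenced. The K556R mice carried a hepatocyte-specific knock-in of a form of Prox1, a homeodomain transcription factor, that lacks the lysine to which the small protein SUMO is attached. Cre recombination switched this form on at 8 weeks of age. Livers were collected 11 weeks later, at Zeitgeber times 15 to 17. The 4 groups were K556R refed, wild-type refed, K556R fasted and wild-type fasted, with 5 libraries each, so all groups share sex, diet, age and time of collection. The titles call the wild-type libraries Ctrl and the K556R libraries Cre, so that Cre and K556R cannot be told apart from the titles. How Cre was delivered, whether controls received it, how long mice were fasted or refed, and whether a library is 1 animal or a pool are not given in the labels. Batch 1 held 14 libraries and batch 2 held 6, of which 3 were K556R refed and 1 came from each other group.

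The glycerol 3-phosphate pathway builds triglyceride from fatty acids activated as acyl-CoA. Glycerol-3-phosphate acyltransferases add the first acyl chain, lysophosphatidate acyltransferases add the next, lipins remove the phosphate of phosphatidate to give diacylglycerol, and diacylglycerol acyltransferases add the last chain. A shorter route makes diacylglycerol from monoacylglycerol. Hepatocytes store the triglyceride in droplets or export it in lipoproteins, and lipin 1 also acts in the nucleus as a partner of the receptor PPAR alpha.

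Total counts were 33746054 to 50647297 per library. Levels are given as CPM, counts scaled to a common library total with TMM factors, and as CPM per kb of the longest coding transcript where genes are compared with each other. Summed markers of hepatocytes were at 97896 to 141700 CPM in the 20 libraries. Summed adipocyte markers reached at most 2.41 CPM and skeletal muscle markers at most 0.0382 CPM, and the fat cell hormone Lep and the muscle enzyme Ckm were at 0 counts in all 20 libraries. Pck1, a gluconeogenic enzyme gene that marks fasting, averaged 1217 ± 752 CPM in K556R refed and 987 ± 277 in wild-type refed livers, against 6277 ± 944 in K556R fasted and 6783 ± 1127 in wild-type fasted livers (SD, n = 5 each). Prox1 averaged 75.5 ± 12.1 CPM in K556R refed against 110 ± 15.7 in wild-type refed livers, and 105 ± 15.7 in K556R fasted against 185 ± 38.6 in wild-type fasted livers (SD, n = 5 each). Neither of these Prox1 differences passed an adjusted p of 0.05 (edgeR quasi-likelihood F test), as no gene did between genotypes in refed or in fasted livers. A gene count does not show the K556R base change itself. The part of the Prox1 level in the values below was not tested.

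The sequences just upstream of 4 of the genes are shown because these genes had the largest changes with feeding. Each line holds the 250 bases before a RefSeq transcription start on GRCm38.p6, read 5′ to 3′ on the gene's strand, and capitals mark a motif found by its letters. They lie at chr12:16610967-16611216 on the minus strand for Lpin1, chr17:71183282-71183531 on the plus strand for Lpin2, chr19:55127239-55127488 on the minus strand for Gpam and chr15:84167566-84167815 on the plus strand for Pnpla3.
Lpin1: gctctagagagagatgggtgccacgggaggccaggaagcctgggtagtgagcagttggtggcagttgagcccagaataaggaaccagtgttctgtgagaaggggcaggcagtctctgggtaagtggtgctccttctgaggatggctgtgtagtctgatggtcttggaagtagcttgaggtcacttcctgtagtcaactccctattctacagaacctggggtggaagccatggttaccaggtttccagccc
Lpin2: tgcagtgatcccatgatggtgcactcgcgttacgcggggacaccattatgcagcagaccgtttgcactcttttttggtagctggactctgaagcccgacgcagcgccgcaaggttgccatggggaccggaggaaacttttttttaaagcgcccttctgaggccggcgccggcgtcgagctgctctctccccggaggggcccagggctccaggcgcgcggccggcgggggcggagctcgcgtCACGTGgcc
Gpam: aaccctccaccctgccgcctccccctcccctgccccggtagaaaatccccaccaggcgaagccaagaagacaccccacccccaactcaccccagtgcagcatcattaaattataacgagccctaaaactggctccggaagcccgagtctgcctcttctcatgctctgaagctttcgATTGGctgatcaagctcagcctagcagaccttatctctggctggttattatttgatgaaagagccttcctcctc
Pnpla3: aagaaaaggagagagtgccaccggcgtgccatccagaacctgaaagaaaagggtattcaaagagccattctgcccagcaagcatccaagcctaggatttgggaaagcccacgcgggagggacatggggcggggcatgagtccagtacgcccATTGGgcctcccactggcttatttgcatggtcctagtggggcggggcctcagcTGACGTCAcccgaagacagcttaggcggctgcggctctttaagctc
The letters searched on both strands were CACGTG (an E-box), TCACNCCAC (a sterol regulatory element), TGACGTCA (a cyclic AMP response element), the glucocorticoid response element (AGAACA and its reverse complement, 3 bases apart), direct repeats of AGGTCA 1 base and 4 bases apart, TATAAA and CCAAT. Both repeats share AGGTCA, and the printed matches do not overlap. Of the printed windows, that of Lpin2 held CACGTG, which 6.02% of 32851 promoter windows hold. Pnpla3 held TGACGTCA, found in 1.55% of windows. Pnpla3 and Gpam both held CCAAT on the other strand, found in 33.8% of windows. None of these letters was in the Lpin1 window. The others searched are held by 1.05% of windows (TCACNCCAC), 0.00913% (glucocorticoid response element), 0.0335% and 0.0152% (the repeats, in the order above) and 12.4% (TATAAA). RefSeq windows matched 7 of the 9 genes, and some genes have further starts that are not printed here. The Lpin2 windows before 71183978 and 71204654 held no CACGTG, and the latter held CCAAT. The Gpam window before 55099477 held none of the letters. Because the percentages are per window, a gene with more windows has more chances of a match.

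Refeeding was compared with fasting in each genotype to ask how these genes followed the feeding state. Lpin1 and Lpin2 fell with refeeding in both genotypes, while Gpam, which makes the first acylation step, and Pnpla3 rose. In K556R livers 6 of the 9 genes changed, 3 higher and 3 lower, and in wild-type livers 8 changed, 5 higher and 3 lower (edgeR quasi-likelihood F test, Benjamini-Hochberg adjusted p under 0.05). Of all 13894 genes tested, 39.9% changed in K556R (19.6% higher, 20.3% lower) and 45.1% in wild type (20.9% higher, 24.2% lower). The median log2 change over the 9 genes was 0.05 in K556R and 0.37 in wild-type livers, against 0.01 in K556R and -0.01 in wild type over all genes tested. Less RNA per cell and fewer cells of a type cannot be told apart in bulk liver.

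**Figure D1:**
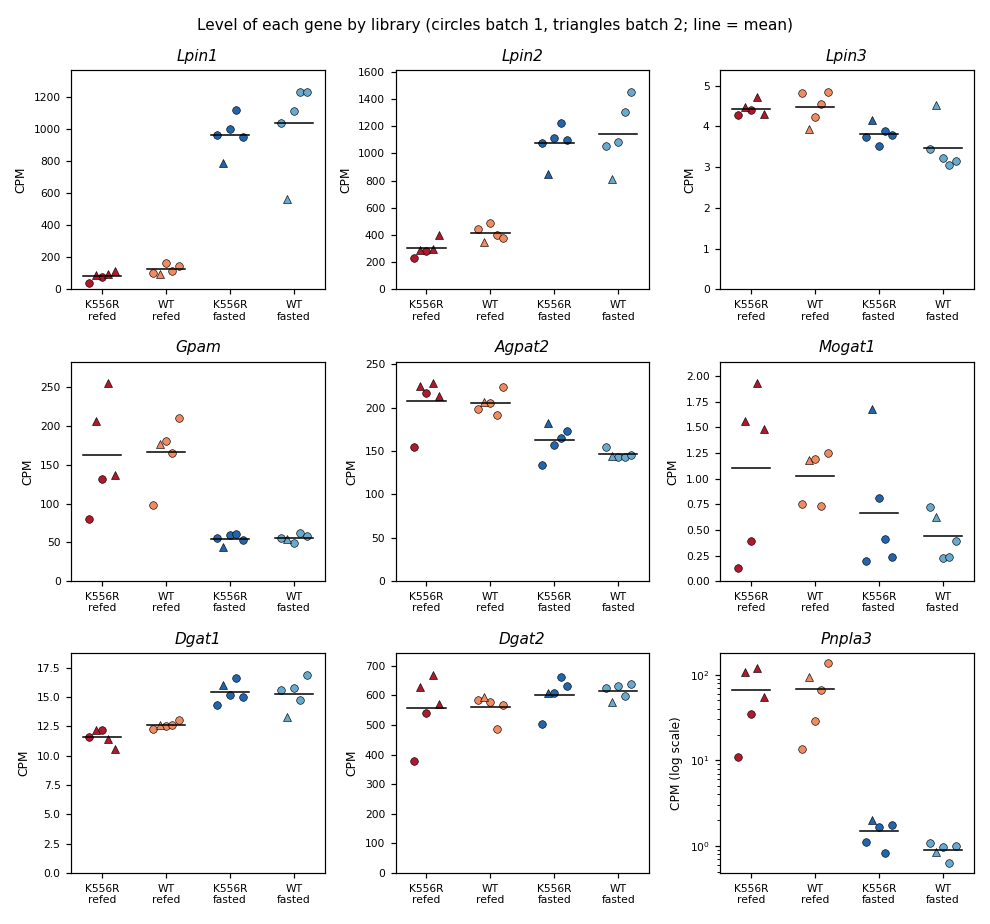
Levels of the 9 genes in CPM in each library, for K556R refed, wild-type refed, K556R fasted and wild-type fasted livers, with circles for batch 1, triangles for batch 2 and a line at the group mean. The Pnpla3 axis is logarithmic and the others start at 0. All fasted libraries lie above all refed ones for Lpin1 and Lpin2, and below them for Pnpla3.

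Gpam (chromosome 19, 55067268 to 55127238, minus strand) encodes the mitochondrial glycerol-3-phosphate acyltransferase, whose product starts the pathway. In K556R livers it measured 80.6, 132, 207, 255 and 137 CPM after refeeding, against 55.1, 59.2, 60.5, 53.8 and 44.5 CPM after fasting. In wild-type livers it measured 98.0, 181, 166, 210 and 177 CPM after refeeding, against 55.1, 49.7, 61.8, 57.9 and 54.7 CPM after fasting. Values within a group are in the order of batch 1, then batch 2. All 10 refed libraries lay above all 10 fasted ones, and the lowest refed library was the first of the K556R refed group. Gpam rose by 1.43 ± 0.26 on the log2 scale in K556R livers (SE, adjusted p = 0.00024) and by 1.57 ± 0.23 in wild-type livers (SE, adjusted p = 2.84e-05), a 2.70-fold and a 2.97-fold difference. Within batch 1 alone the changes were 0.90 and 1.55, and within batch 2 alone 2.17 and 1.71, the batch 2 values not past the threshold (adjusted p = 0.0806 and 0.204). In each pair the K556R value stands before the wild-type one, and batch 2 holds 1 library of each group but K556R refed. The p-values in batch 2 alone, here and below, therefore take their spread from the 3 K556R refed libraries and assume that the single libraries vary alike.

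Agpat2 (chromosome 2, 26593057 to 26604417, minus strand) encodes the lysophosphatidate acyltransferase of the next step. It measured 154, 216, 225, 228 and 213 CPM in K556R refed livers, against 134, 157, 165, 173 and 182 CPM in K556R fasted livers. It measured 198, 206, 192, 224 and 206 CPM in wild-type refed livers, against 155, 144, 143, 145 and 144 CPM in wild-type fasted livers. The wild-type groups did not overlap, while 1 K556R refed library lay among the K556R fasted ones. Agpat2 rose by 0.30 ± 0.09 on the log2 scale in K556R (adjusted p = 0.0126) and by 0.49 ± 0.09 in wild type (adjusted p = 0.000106), with edgeR's test and SE. The K556R call was lost when only the 2 groups compared were fitted (adjusted p = 0.094) and in batch 1 (0.24, adjusted p = 0.176) and batch 2 (0.29, adjusted p = 0.0616) alone. An exon of Egfl7 on the opposite strand shares 3.0% of the exonic bases of Agpat2, and the strand setting of the counting is not given.

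Lpin1 (chromosome 12, 16535669 to 16610966, minus strand) encodes the phosphatidate phosphatase lipin 1. In K556R livers it measured 38.4, 79.2, 87.7, 92.9 and 116 CPM after refeeding, against 965, 998, 1116, 949 and 786 CPM after fasting. In wild-type livers it measured 103, 167, 112, 148 and 97.4 CPM after refeeding, against 1036, 1116, 1234, 1229 and 567 CPM after fasting. Refed and fasted libraries were far apart in both genotypes, and the lowest fasted library was the batch 2 one of wild type. Lpin1 fell by 3.46 ± 0.29 on the log2 scale in K556R livers (adjusted p = 9.7e-08) and by 3.04 ± 0.26 in wild-type livers (adjusted p = 8.24e-08), SE from the edgeR fit. These are 11.0-fold and 8.22-fold lower levels after refeeding. In batch 1 alone the log2 changes were -4.10 in K556R and -3.12 in wild type, and in batch 2 alone -2.98 and -2.53.

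Lpin2 (chromosome 17, 71182560 to 71249817, plus strand) encodes lipin 2, a phosphatase of the same family that is abundant in liver. In K556R livers it measured 233, 284, 289, 299 and 398 CPM after refeeding, against 1078, 1110, 1228, 1101 and 850 CPM after fasting. In wild-type livers it measured 445, 490, 403, 380 and 347 CPM after refeeding, against 1058, 1081, 1307, 1455 and 814 CPM after fasting. The refed and fasted ranges did not overlap in either genotype, and the gap was narrower than for Lpin1. Lpin2 fell by 1.75 ± 0.16 on the log2 scale in K556R (adjusted p = 1.16e-07) and by 1.46 ± 0.15 in wild type (adjusted p = 1.94e-07), a 3.36-fold and a 2.76-fold lower level. Within batch 1 the changes were -2.13 and -1.51, and within batch 2 they were -1.36 and -1.22, again K556R before wild type.

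Lpin3 (chromosome 2, 160880670 to 160906002, plus strand) encodes the third lipin and was near the low end. It measured 4.29, 4.39, 4.49, 4.72 and 4.30 CPM in K556R refed livers, against 3.74, 3.52, 3.90, 3.79 and 4.15 CPM in K556R fasted livers. It measured 4.81, 4.23, 4.55, 4.85 and 3.92 CPM in wild-type refed livers, against 3.44, 3.22, 3.06, 3.14 and 4.52 CPM in wild-type fasted livers. The wild-type groups overlapped through their batch 2 libraries, and the K556R groups did not overlap. In K556R livers the log2 difference was 0.17 with a 95% interval from -0.05 to 0.39 (adjusted p = 0.21). Lpin3 rose by 0.37 ± 0.10 in wild type (log2, SE, adjusted p = 0.00531), and in batch 2 alone, with 1 refed and 1 fasted library, the sign turned (-0.20, adjusted p = 0.626 with the spread of the K556R refed libraries). Of the 3 lipins, 2 fell and none rose in K556R, and 2 fell and 1 rose in wild type. Of the 5 acyltransferases, 2 rose and 1 fell in K556R, and 3 rose and 1 fell in wild type.

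The final step was represented by 2 unrelated diacylglycerol acyltransferases. Dgat1 (chromosome 15, 76502015 to 76511953, minus strand) averaged 11.6 ± 0.678 CPM in K556R refed against 15.4 ± 0.900 in K556R fasted livers, and 12.6 ± 0.275 in wild-type refed against 15.3 ± 1.32 in wild-type fasted livers (SD, n = 5 each). Its refed and fasted ranges did not overlap in either genotype. Dgat1 fell by 0.39 ± 0.07 on the log2 scale in K556R (adjusted p = 0.000118) and by 0.27 ± 0.06 in wild type (SE, adjusted p = 0.00175). In batch 2 alone the wild-type value was -0.07 (adjusted p = 0.829).

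Dgat2 (chromosome 7, 99153658 to 99182719, minus strand), which esterifies newly made fatty acids, did not pass the test. It averaged 557 ± 112 CPM in K556R refed against 603 ± 59.6 in K556R fasted livers, and 562 ± 43.6 in wild-type refed against 614 ± 25.1 in wild-type fasted livers (SD, n = 5 each). Refed and fasted libraries overlapped in both genotypes. The log2 difference was -0.19 in K556R (95% interval -0.42 to 0.05, adjusted p = 0.21) and -0.13 in wild type (95% interval -0.35 to 0.09, adjusted p = 0.336). In batch 1 alone the K556R value passed the threshold at -0.39 (adjusted p = 0.0488).

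Mogat1 (chromosome 1, 78510991 to 78538173, plus strand) encodes a monoacylglycerol acyltransferase of the shorter route and was scarce, at 7 to 101 counts per library. It measured 0.130, 0.395, 1.57, 1.93 and 1.49 CPM in K556R refed livers, against 0.198, 0.810, 0.413, 0.239 and 1.68 CPM in K556R fasted livers. It measured 0.755, 1.19, 0.734, 1.25 and 1.19 CPM in wild-type refed livers, against 0.729, 0.230, 0.240, 0.389 and 0.624 CPM in wild-type fasted livers. The K556R groups spanned much the same range, with the batch 2 libraries high in both, and the wild-type groups lay just apart. In K556R the log2 difference was 0.05 with a 95% interval from -0.93 to 1.03. Mogat1 rose by 1.26 ± 0.45 in wild type (SE, adjusted p = 0.0291), a 2.40-fold difference. The wild-type call was lost without the batch term (adjusted p = 0.13), in batch 2 alone (adjusted p = 0.172) and on leaving out any 1 of 5 libraries: wild-type refed 2_b1 (0.072) or 4_b1 (0.0793), or wild-type fasted 2_b1 (0.0667), 3_b1 (0.0622) or 1_b2 (0.0954). With the replicate numbers as a block the adjusted p was 0.0616, and a gene on the opposite strand, BC035947, shares 12.8% of the exonic bases of Mogat1.

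Pnpla3 (chromosome 15, 84167837 to 84187236, plus strand) encodes a lipid droplet protein of the patatin family with lipase activity, known in humans for a variant tied to fatty liver. In K556R livers it measured 10.9, 34.7, 107, 119 and 55.4 CPM after refeeding, against 1.11, 1.68, 0.826, 1.74 and 2.03 CPM after fasting. In wild-type livers it measured 13.6, 28.9, 65.6, 135 and 93.5 CPM after refeeding, against 1.08, 0.971, 0.630, 1.00 and 0.839 CPM after fasting. Every refed library was above every fasted one, and the refed libraries of both genotypes were widely spread. Gm49513, on the same strand, shares 6.78% of the exonic bases of Pnpla3, and reads there cannot be told apart by strand. Pnpla3 rose by 4.84 ± 0.68 on the log2 scale in K556R (28.6-fold, adjusted p = 3.3e-05) and by 6.22 ± 0.69 in wild type (74.8-fold, adjusted p = 1.99e-06). Within batch 1 the values were 4.09 and 6.03, and within batch 2, where neither passed the threshold, they were 5.54 (adjusted p = 0.0674) and 6.80 (adjusted p = 0.101), K556R first in each pair.

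**Figure D2:**
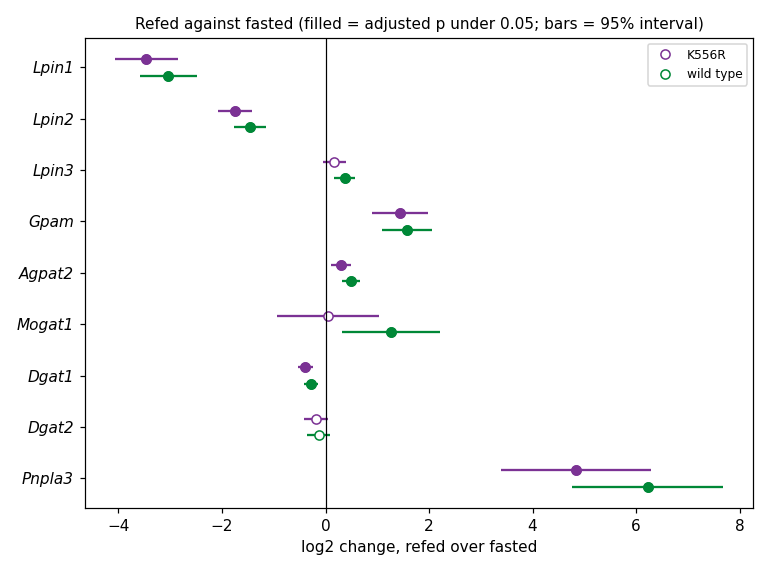
Log2 change of each gene, refed over fasted, in K556R (purple) and wild-type (green) livers, from the edgeR fit. Filled points passed an adjusted p of 0.05 and bars are 95% intervals. Lpin1 and Lpin2 lie left of 0, Gpam, Agpat2 and Pnpla3 right of it in both genotypes, and the Dgat2 points are open in both.

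Groups that did not overlap between refed and fasted livers were found for 6 of the 9 genes in K556R, against 26.9% of all genes tested, and for 7 of 9 in wild type, against 34.6%. Those higher after refeeding were Gpam, Lpin3 and Pnpla3 in K556R (12.8% of all genes) and Gpam, Agpat2, Mogat1 and Pnpla3 in wild type (15.9%), and those lower were Lpin1, Lpin2 and Dgat1 in both (14.1% in K556R and 18.7% in wild type). The lipin change was also a change in balance. Per kb, the summed lipin level divided by the summed acyltransferase level had a median of 0.160 in K556R refed livers (0.143 to 0.218) and 0.238 in wild-type refed livers (0.183 to 0.274). It was 0.958 in K556R fasted (0.718 to 1.11) and 1.00 in wild-type fasted livers (0.670 to 1.20). With the length of all exons in place of the longest coding transcript, the medians were lower. They were 0.11 in K556R refed and 0.16 in wild-type refed livers, against 0.68 in K556R fasted and 0.72 in wild-type fasted livers. The acyltransferase sum, which Dgat2 and Agpat2 dominate, had medians of 424 CPM per kb in K556R refed and 430 in wild-type refed livers, against 408 in K556R fasted and 392 in wild-type fasted livers. The lipin sum had medians of 68.2 and 95.3 CPM per kb in the refed groups, against 366 and 393 in the fasted groups, K556R before wild type in each pair. Refed and fasted libraries did not overlap in the ratio or in the lipin sum, and overlapped in the acyltransferase sum.

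Within the lipins, Lpin1 made up a median of 22.5% of the summed CPM per kb in K556R refed and 21.8% in wild-type refed livers, against 47.5% in K556R fasted and 48.7% in wild-type fasted livers. Lpin2 took most of the remainder, with medians of 76.2% and 76.8% after refeeding, against 52.2% and 51.1% after fasting. Lpin3 never exceeded 2.50% by this length. By the length of all exons the Lpin1 medians were 26.3% in K556R refed and 25.5% in wild-type refed livers. They were 53.0% in K556R fasted and 54.2% in wild-type fasted livers, so the larger lipin after fasting depended on the length used. Lpin1 per Gpam, both per kb, had medians of 0.528 in K556R refed and 0.778 in wild-type refed livers, against 19.5 in K556R fasted and 22.1 in wild-type fasted livers. Fasted livers thus carried more Lpin1 than Gpam per kb in every library. In refed livers Gpam was the higher of the pair in 8 of 10 libraries, and in all 10 with the length of all exons in place of the longest coding transcript. By that length the Lpin1 per Gpam medians were 0.329 in K556R refed and 0.485 in wild-type refed livers, against 12.2 in K556R fasted and 13.8 in wild-type fasted livers.

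**Figure D3:**
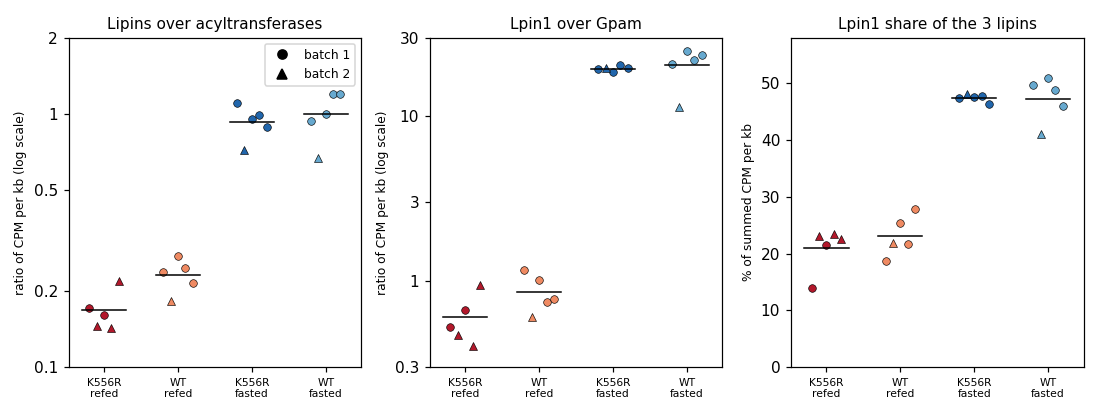
Summed lipins over summed acyltransferases (left), Lpin1 over Gpam (middle), both as ratios of CPM per kb on log axes, and Lpin1 as a percent of the summed CPM per kb of the 3 lipins (right), for each library of the 4 groups. Circles are batch 1, triangles batch 2, and lines are group means. In all 3 panels the refed libraries lie below the fasted ones.

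The order of the genes by mean CPM per kb differed between feeding states. After refeeding it ran, in both genotypes, Dgat2, Agpat2, Lpin2, Pnpla3, Gpam, Lpin1, Dgat1, Lpin3 and Mogat1, with Dgat2 at 246 and Agpat2 at 139 in K556R and 248 and 138 in wild type. In wild-type refed livers Lpin2 was at 73.2, Pnpla3 at 51.3, Gpam at 27.0, Lpin1 at 22.5 and Dgat1 at 6.68 CPM per kb. The spread of Pnpla3 covered Lpin2, Gpam and Lpin1, so these neighbours did not differ beyond their spread. After fasting the order ran, in wild type, Dgat2 at 272, Lpin2 at 203, Lpin1 at 186, Agpat2 at 98.1, Gpam at 9.05, Dgat1 at 8.08, Lpin3 at 1.00, Pnpla3 at 0.689 and Mogat1 at 0.360 CPM per kb. Dgat2 and Lpin2 overlapped there, as did Lpin2 and Lpin1, Lpin1 and Agpat2, Gpam and Dgat1, and Pnpla3 and Mogat1. In K556R fasted livers the order was the same but for Pnpla3 at 1.13 just above Lpin3 at 1.10. With the length of all exons in place of the longest coding transcript, Lpin1 came above Lpin2 in fasted livers, at 107 against 93.4 CPM per kb in wild type, and Pnpla3 above Lpin2 in refed livers, at 43.5 against 33.8.

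Across the 20 libraries, the tested genes most like Lpin1 by Pearson's r of log2 CPM were Lpin2 (0.987), Angptl4 (0.986), which encodes a secreted inhibitor of lipoprotein lipase, and Adck2 (0.979). Those most like Lpin2 were Lpin1 (0.987), Npc1 (0.978), a lysosomal cholesterol transporter, and Cyth2 (0.977). Gpam ran closest to Derl2 (0.977), Tfg (0.968) and Vcl (0.965), and Pnpla3 to the lipogenic genes Fasn (0.977) and Pgd (0.975) and to Tsc22d1 (0.971). These values describe 20 libraries that share 4 groups, and the feeding difference dominates them.

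The other genes of glycerolipid synthesis were a list of 30, all tested. In K556R livers 7 rose with refeeding, 11 fell and 12 did not pass the test, with a median log2 change of 0.00, and in wild-type livers 5 rose, 8 fell and 17 did not pass, with a median of -0.10. Of all genes tested, 19.6% rose and 20.3% fell in K556R and 20.9% rose and 24.2% fell in wild type, with medians of 0.01 and -0.01. The K556R counts moved with single libraries: 3 rose without K556R fasted 3_b1, 4_b1 or 1_b2, 4 rose without K556R refed 1_b1 or wild-type refed 1_b2, and 6 fell without K556R refed 2_b1. Gpat4 and Gpat3, which encode the glycerol-3-phosphate acyltransferases of the endoplasmic reticulum, moved opposite to Gpam. Gpat4 averaged 243 ± 26.2 CPM in K556R refed against 483 ± 50.2 in K556R fasted livers, and 225 ± 26.5 in wild-type refed against 472 ± 73.6 in wild-type fasted livers (SD, n = 5 each). It fell by 0.93 ± 0.11 on the log2 scale in K556R (SE, adjusted p = 1.89e-06) and by 1.06 ± 0.10 in wild type (SE, adjusted p = 1.49e-07). Gpat3 averaged 5.61 ± 1.14 CPM in K556R refed against 19.9 ± 3.96 in K556R fasted livers, and 4.77 ± 0.856 in wild-type refed against 11.2 ± 4.34 in wild-type fasted livers (SD, n = 5 each). It fell by 1.88 ± 0.25 in K556R (adjusted p = 8.91e-06) and by 1.24 ± 0.24 in wild type (adjusted p = 0.000309).

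The acyl-CoA synthetases were split. Acsl3, the lipid droplet member, rose by 1.37 ± 0.12 on the log2 scale in K556R (adjusted p = 6.1e-08) and by 1.43 ± 0.11 in wild type (adjusted p = 8.78e-09). Acsl5 rose by 0.31 in K556R (adjusted p = 0.0261) and by 0.62 in wild type (adjusted p = 4.82e-05). Acsl1, the main synthetase gene of liver, fell by 0.51 in K556R (adjusted p = 0.00121) and by 0.43 in wild type (adjusted p = 0.00249). Gk, whose product makes glycerol 3-phosphate, fell by 0.54 in K556R (adjusted p = 0.00022) and by 0.49 in wild type (adjusted p = 0.000231). Chka, the first enzyme of the choline branch that draws on diacylglycerol, rose by 0.90 in K556R (adjusted p = 0.000524) and by 1.11 in wild type (adjusted p = 3.67e-05).

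**Figure D4:**
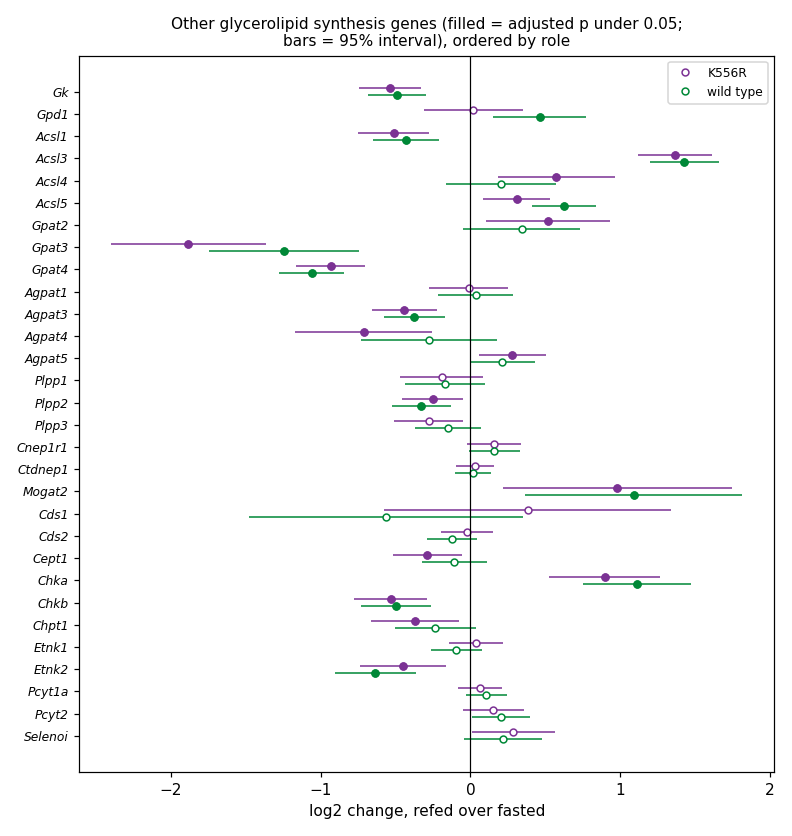
Log2 change, refed over fasted, of the 30 other glycerolipid synthesis genes in K556R (purple) and wild-type (green) livers, ordered by role from glycerol 3-phosphate supply at the top to the phospholipid branches at the bottom. Filled points passed an adjusted p of 0.05 and bars are 95% intervals. Gpat3 and Gpat4 lie left of 0 and Acsl3 and Chka right of it.

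K556R was compared with wild type in refed and in fasted livers to ask whether the Prox1 form altered these genes. None of the 9 passed the test in either state, by edgeR or by DESeq2. The share of all genes called by edgeR was 0% in refed and 0% in fasted livers, with 693 and 1136 of 13894 genes at an unadjusted p under 0.05 and 6 and 55 called by DESeq2. Averaged over feeding states, none of the 9 was called, against 0.0288% of all genes tested (0.0072% higher, 0.0216% lower). The 30 other synthesis genes gave 0 calls in each of these comparisons, and 2 in fasted livers and 2 averaged in batch 2 alone.

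In refed livers all 9 log2 differences were below 0, with a median of -0.17, against 0.02 over all genes tested. Lpin1 averaged 82.9 ± 28.4 CPM in K556R refed and 125 ± 30.4 in wild-type refed livers (SD, n = 5 each), a log2 difference of -0.52 with a 95% interval from -1.10 to 0.06 (adjusted p = 0.965). Lpin2 averaged 301 ± 60.0 CPM in K556R refed and 413 ± 56.2 in wild-type refed livers, a difference of -0.37 with an interval from -0.70 to -0.04 (unadjusted p = 0.028, adjusted p = 0.965, edgeR). The groups overlapped for both lipins. The third lipin, Lpin3 (-0.06, -0.28 to 0.16), lay nearer 0 on the log2 scale, as did Gpam (-0.17, -0.69 to 0.36), Dgat2 (-0.08) and Agpat2 (-0.04). Mogat1 (-0.86, -1.85 to 0.13) and Pnpla3 (-0.71, -1.94 to 0.51) had wide intervals.

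Batch and 1 library moved with these values. Within batch 1, with 2 K556R refed and 4 wild-type refed libraries, the log2 differences were -1.17 for Lpin1 and -0.73 for Lpin2. Within batch 2, with 3 and 1 libraries, they were 0.02 and -0.08. K556R refed 1_b1 was the lowest of the 10 refed libraries for 7 of the 9 genes, all but Dgat1 and Lpin3. Without it the differences were -0.17 for Lpin1 and -0.20 for Lpin2, and those of Gpam, Agpat2 and Dgat2 turned to 0.09, 0.07 and 0.07. The same library had summed macrophage and Kupffer cell markers of 126 CPM, against 61.8 to 77.1 in the other 4 K556R refed libraries. Its summed proliferation markers were 21.3 CPM, against 3.60 to 5.07 in those 4, its lymphocyte markers 5.18 against 1.19 to 2.16, its endothelial markers 61.9 against 39.9 to 47.0 and its stellate markers 81.3 against 55.8 to 70.8. Its hepatocyte markers (99715 against 97896 to 113130) and cholangiocyte markers (5.66 against 4.20 to 6.89) lay within the range of those 4. Its adipocyte markers (0.0186 against 0.263 to 2.41) and skeletal muscle markers (0.0186 against 0.0219 to 0.0382) were scarce and below it. The part of any of these cell types in the lower values of the 9 genes was not tested.

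Dgat1 was the gene whose refed ranges did not overlap between genotypes. It measured 11.6, 12.2, 12.2, 11.4 and 10.6 CPM in K556R refed livers, against 12.3, 12.5, 12.6, 13.0 and 12.6 CPM in wild-type refed livers. The groups touched closely, and the log2 difference was -0.10 with a 95% interval from -0.24 to 0.04. Of all genes tested, 0.619% did not overlap in this comparison (0.194% higher, 0.425% lower).

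In fasted livers the genotypes overlapped for all 9 genes, and of all genes tested 0.914% did not overlap (0.367% higher, 0.547% lower). Lpin1 averaged 963 ± 118 CPM in K556R fasted and 1036 ± 275 in wild-type fasted livers (SD, n = 5 each), a log2 difference of -0.10 with a 95% interval from -0.61 to 0.41. For Lpin2 it was -0.09 (-0.39 to 0.21), for Gpam -0.03 (-0.51 to 0.46), for Dgat2 -0.03 (-0.25 to 0.19) and for Dgat1 0.02 (-0.12 to 0.15). Agpat2 was at 0.15 (-0.03 to 0.33), Lpin3 at 0.14 (-0.07 to 0.35), Mogat1 at 0.35 (-0.64 to 1.35) and Pnpla3 at 0.67 (-0.98 to 2.33). Some fasted libraries stood apart in markers of other cells. K556R fasted 1_b1, the lowest of its group for Agpat2, Dgat1, Dgat2 and Mogat1, had summed lymphocyte markers of 5.59 CPM against 0.501 to 1.91 in the other 4 and proliferation markers of 12.7 CPM against 5.13 to 7.30. By smaller margins its endothelial (57.6 against 46.3 to 56.5) and stellate markers (75.3 against 38.9 to 72.1) were also higher. So were its macrophage and Kupffer cell (81.3 against 59.7 to 80.4) and hepatocyte markers (132780 against 125010 to 131930). Its scarce adipocyte markers were lower (0.0990 against 0.103 to 1.01). Wild-type fasted 2_b1 had summed macrophage and Kupffer cell markers of 181 CPM, against 36.5 to 80.6 in the other 4. Without K556R fasted 1_b1 the log2 differences were 0.20 for Agpat2, 0.05 for Dgat1, 0.02 for Dgat2 and 0.54 for Mogat1, and without wild-type fasted 2_b1 they were 0.15, 0.03, -0.01 and 0.25, none past the threshold. The part of these cells in the values was not tested. Among the other synthesis genes, Gpat3 had the lowest p, at a log2 difference of 0.81 ± 0.23 (SE, adjusted p = 0.312).

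**Figure D5:**
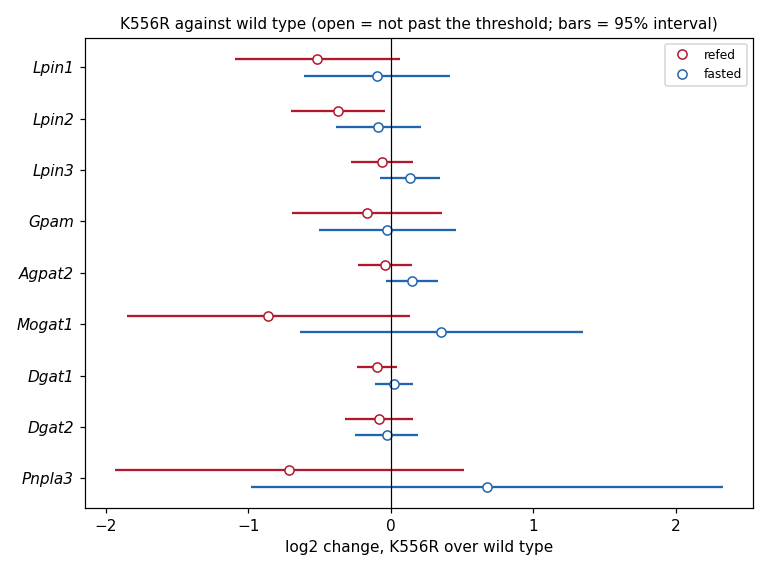
Log2 change of each gene, K556R over wild type, in refed (red) and fasted (blue) livers, from the edgeR fit, with 95% intervals. All points are open because none passed an adjusted p of 0.05, and all 9 refed points lie left of 0.

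Whether refeeding acted differently in the genotypes was tested as the interaction of genotype and feeding. None of the 9 genes passed, against 0% of all genes by edgeR, with 553 of 13894 at an unadjusted p under 0.05 and 1 called by DESeq2. The interaction was -0.42 for Lpin1 (95% interval -1.18 to 0.34), -0.29 for Lpin2, -0.14 for Gpam (-0.86 to 0.58), -1.38 for Pnpla3 (-3.43 to 0.66) and -1.21 for Mogat1 (unadjusted p = 0.078), all on the log2 scale. The larger falls of Lpin1 and Lpin2 and the smaller rise of Pnpla3 in K556R were not past the threshold of this test. Mogat1 and Lpin3, called in wild type alone, were not shown to respond differently in K556R livers. Averaged over feeding states, Lpin2 was at -0.23 ± 0.11 (SE, unadjusted p = 0.0436, adjusted p = 0.516) and Lpin1 at -0.31 (adjusted p = 0.635).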

How the data were processed

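The authors deposited raw read counts per gene for 20 mouse liver libraries. Tools named in the submitters' processing notes are edgeR, DESeq2, HTSeq, STAR, STAR-Fusion and TopHat, and the build is mm10. The notes list these names without roles, so which of them made the counts is not stated, nor are the annotation and the strand setting, and reads from overlapping genes cannot be told apart. Poly-T beads captured the messenger RNA, per the labels' protocols.

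After filterByExpr and TMM scaling, the quasi-likelihood F test of edgeR 4.0.16 (robust option, R 4.3.3) was applied to the counts. A single model of all 20 libraries held group and batch. Benjamini-Hochberg adjustment covered the 13894 genes that passed the filter, and the threshold was 0.05. A 95% interval is that of the edgeR log2 change. Alternatives were DESeq2 1.42.0, RLE scaling, no filter and a stricter one, no batch term, each batch alone, the groups compared alone, the replicate numbers as a block, and leaving out libraries.

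Levels per kb use transcript lengths of GENCODE M21 on GRCm38, which also gives the positions. The labels number the libraries as repeats without saying how they relate to animals, so p-values measure the spread between these libraries. No 2 libraries of a group agreed within sampling noise. The members, the 30 synthesis genes, the regulators and the markers were chosen with earlier results of these data known. All 9 members are named, with up to 6 of the 30 genes of lowest p per refeeding comparison and up to 4 per genotype comparison, the regulators, Prox1 and Pck1, and the 3 genes most like each of 4 members. The scripts were tested on simulated data.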

Additional observations from a re-analysis of the deposited data

Results flagged for a closer look

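In 36 sets of 5 libraries (9 genes in 4 groups), Dixon's test at the 95% level marked 4 in which 1 library stood apart, and chance marks about 1 set in 20. Agpat2 was at 154 CPM in K556R refed 1_b1, with the next lowest of that group at 213 CPM. Agpat2 was at 155 CPM in wild-type fasted 1_b1, with the next highest of that group at 145 CPM. Dgat2 was at 486 CPM in wild-type refed 3_b1, with the next lowest of that group at 568 CPM. Lpin3 was at 4.52 CPM in wild-type fasted 1_b2, with the next highest of that group at 3.44 CPM.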

How the results depend on the processing

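Of 186 alternative values of the 6 genes called with refeeding in K556R, 181 kept their direction and call and 5 lost the call. Of 248 for the 8 called in wild type, 236 kept both, 11 lost the call and 1 turned its sign: Lpin3 in batch 2 alone, at -0.20. Leaving out each library in turn left 6 members called in K556R and 7 to 8 in wild type. Batch 2 alone, where the 3 K556R refed libraries give all the spread and each other group is 1 library, called 3 members in each genotype and 2702 genes in K556R and 1144 in wild type, against 5543 and 6263 in the full fit. It also called 12 genes for K556R in refed livers, 220 in fasted livers, 156 averaged and 21 for the interaction, against 0, 0, 4 and 0, and of the 30 synthesis genes 2 higher in fasted livers, 2 higher averaged and 1 lower for the interaction. DESeq2 called 6 genes in refed livers, 55 in fasted livers, 40 averaged and 1 for the interaction. Fitting the groups compared alone called 3 genes in refed livers, and leaving out 2 libraries set apart called 1 in fasted livers. Averaged, 2 genes were called without the batch term, and 0 in batch 1 alone, with the replicate block and without 3 libraries set apart. Leaving out 1 library gave 0 to 1 genes in refed livers, 0 to 2 in fasted livers and 3 to 13 averaged (13 without K556R fasted 2_b1). The cause of these shifts was not tested.

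Deviations of log2 CPM from the group means within batch 1 were correlated between libraries of different groups. Of same-numbered pairs, 4 of 18 correlated above 0.1 (median -0.02), against 9 of 54 differently numbered pairs (median -0.01). The highest r, 0.632, was that of a same-numbered pair, K556R fasted 1_b1 and K556R refed 1_b1. In batch 1 the K556R refed group holds only 1_b1 and 2_b1, so their deviations are mirror images. K556R fasted 1_b1 was thus at -0.632 with K556R refed 2_b1. Of 14 batch 1 libraries, 6 correlated best with their own number. All these counts include the mirrored pairs, which are not separate values. Whether a number marks a shared origin was not tested. With the replicate block, 6 members and 4511 genes were called in K556R and 7 members and 5929 genes in wild type. No scaling moved the median of all genes by over 0.1 on the log2 scale. Low counts limit Mogat1.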

Other observations

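Of 7 genes for regulators known to act on this pathway, 6 were tested, and Ppargc1a was listed at 0 counts in all 20 libraries, from which no lack of expression is read because the annotation used in counting is not given. Srebf1, the sterol regulatory element factor of lipogenesis, averaged 445 ± 127 CPM in K556R refed against 68.2 ± 8.24 in K556R fasted livers, and 366 ± 70.2 in wild-type refed against 67.6 ± 22.3 in wild-type fasted livers (SD, n = 5 each). It rose by 2.48 on the log2 scale in K556R (adjusted p = 6.16e-08) and by 2.45 in wild type (adjusted p = 2.19e-08), by edgeR. Mlxipl, which encodes the carbohydrate response factor ChREBP, rose by 1.16 in K556R (adjusted p = 0.000309) and by 1.22 in wild type (adjusted p = 0.000104). Nr1h3, the liver X receptor alpha gene, rose by 0.29 in K556R (adjusted p = 0.00649) and by 0.28 in wild type (adjusted p = 0.00471). Ppara, the fatty acid receptor of fasting, moved with Lpin1 and Lpin2 and fell by 1.09 in K556R (adjusted p = 2.04e-08) and by 1.14 in wild type (adjusted p = 3.15e-09). Pparg was at 0.44 in K556R (adjusted p = 0.0566) and rose by 0.67 in wild type (adjusted p = 0.00286). Nr3c1, the glucocorticoid receptor gene, was at 0.10 in K556R and -0.01 in wild type, neither past the threshold. None of the 6 differed between genotypes past the threshold.

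The Dgat2 to Dgat1 ratio per kb had medians of 42.9 in K556R refed and 38.6 in wild-type refed livers, against 33.3 in K556R fasted and 33.5 in wild-type fasted livers, with overlap between refed and fasted libraries.

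With group and batch means removed from log2 CPM, all 36 pairs of the 9 genes were correlated over the 20 libraries, each with 100000 permutations and adjusted over the 36, and 13 had an adjusted p of Pearson's r under 0.05. The permutations treated the 20 libraries as interchangeable, although group and batch means had been fitted and the spread of some genes differed between groups. These p-values and the count of 13 may therefore be too favourable. Agpat2 and Dgat2 had the highest r (0.832, permutation p = 5e-05, adjusted 0.00084, with Spearman's rho = 0.66, p = 0.00194, adjusted 0.0233). The r was 0.622 without K556R refed 1_b1 and K556R fasted 1_b1, 0.868 in batch 1 (n = 14) and 0.732 in batch 2 (n = 6). Lpin1 and Lpin2 followed (r = 0.827, permutation p = 3e-05, adjusted 0.00084, and rho = 0.756, p = 0.00019, adjusted 0.00684), with r = 0.716 without K556R refed 1_b1 and wild-type fasted 1_b2, 0.75 in batch 1 and 0.936 in batch 2. Gpam and Pnpla3 came next (r = 0.772, permutation p = 7e-05, adjusted 0.00084, and rho = 0.592, p = 0.00646, adjusted 0.0465), with r = 0.575 without K556R refed 1_b1 and wild-type refed 1_b1, 0.763 in batch 1 and 0.868 in batch 2. Lpin1 and Gpam, which refeeding moved in opposite directions, were higher and lower together within groups (r = 0.659, permutation p = 0.00199, adjusted 0.0119, and rho = 0.675, p = 0.00125, adjusted 0.0225), with r = 0.487 without K556R refed 1_b1 and wild-type fasted 1_b2, 0.835 in batch 1 and 0.391 in batch 2. Removing group means ties the value of a group's single batch 2 library to its batch 1 values. This holds for all groups but K556R refed, so the r in batch 2 is not a separate check on that in batch 1. The libraries left out were the 2 farthest from the median in the first-named gene of a pair. K556R refed 1_b1 was 1 of them in each of these 4 pairs, and libraries far out in the second gene alone were kept. The libraries of a group share depth and tissue, and what lies behind these relations was not tested.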
